A study of Saccharomyces cerevisiae with 8 samples.

Results

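The genes described here encode proteins of mitochondrial translation and respiration in the budding yeast Saccharomyces cerevisiae. A list of 34 such genes was taken, and each has a row in the study's supplementary list of transcripts. From that list 1999 transcripts, with start and end on the sacCer1 build, were used here. They lie on chromosome 10 and 5 other chromosomes. Shares of all promoters, windows or gene bodies below refer to the listed transcripts outside chromosome 10, not to the whole genome. Strand was read from the systematic name (W or C), and the 1580 other listed transcripts outside chromosome 10 served as the comparison. The rule uses no measured value, but the 34 genes were chosen with earlier results of these data known.

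The study asked which nucleosomes yeast gives up or moves when it runs short of histone H3. The H3 shutoff strain (DCB200.1) lacks HHT1 and carries HHT2, its only remaining H3 gene, under the GAL1 promoter, so that galactose sustains H3 synthesis and dextrose stops it. The wildtype strain (YEF473A) keeps both H3 genes under their own promoters. All cultures were grown in galactose, collected on a filter, washed and moved into dextrose. Cells were fixed with formaldehyde directly after the move (0 h) or after 3 hours in dextrose (3 h), their chromatin was digested with MNase, and the mono-nucleosome band was cut from a gel and sequenced from both fragment ends. The 8 libraries thus form 4 groups of 2: H3 shutoff 3 h and 0 h (replicates 3 and 4) and wildtype 3 h and 0 h (replicates B and C, which the labels place under a single replicate number). Both strains change carbon source between the time points, and in dextrose the H3 shutoff cells also stop dividing as large-budded cells, so in that strain H3 loss, cell cycle arrest and the sugar cannot be told apart. Where replicates are not separate cultures, the p-values below measure only technical spread.

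Mitochondria carry a small genome of their own, and the few respiratory subunits it encodes are made on mitochondrial ribosomes whose proteins are encoded in the nucleus. These ribosomal proteins, the subunits of succinate dehydrogenase, cytochrome c oxidase and ATP synthase, and the Krebs cycle enzymes are made in the cytosol and imported. Budding yeast ferments dextrose even in air and represses many respiratory genes in its presence, which makes their chromatin of interest in a shift from galactose to dextrose.

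The midpoint of each sequenced fragment, the read center, stands for the middle of a nucleosome, and counts of read centers are the measure used throughout. Every library holds 5000001 fragments of 100 to 200 bp, so depth was equal and each count is relative to the rest of its own library. Absolute occupancy was not measured. Fragment lengths differed between the groups. Fragments of 140 to 160 bp made up 34.0% and 31.8% of the H3 shutoff 3 h libraries, against 47.6% and 54.0% at 0 h, and 41.4% and 47.4% of the wildtype 3 h libraries, against 50.4% and 52.9% at 0 h. Fragment length thus moves with the 3 h samples of both strains, most in H3 shutoff. Results were also computed on fragments of 140 to 160 bp alone and are given at the end. Fragment length as a cause of the results below was not tested. In a stretch of chromosome 2 by the deleted HHT1 gene, the 4 H3 shutoff libraries held 0 read centers each and the 4 wildtype libraries between 67 and 81, as the strain labels require. Over the genome, 141 tiles of 200 bp held read centers in the wildtype 3 h C, wildtype 0 h B and both replicate 4 libraries but next to none in the other 4. No such tile lies within 300 bp of the 34 genes, but the pattern sets wildtype 3 h C beside 0 h B, against the labels, and results were therefore also computed with the wildtype 3 h libraries exchanged.

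The 34 genes lie on chromosomes 11 (14 genes), 12 (8) and 13 (12). By role they comprise 13 proteins of the large mitochondrial ribosomal subunit, 4 of the small subunit or its partner RSM22, MRP8 (named as a ribosomal protein), the elongation factor gene MEF1, 3 subunits each of succinate dehydrogenase, cytochrome c oxidase and ATP synthase, the NADH dehydrogenases NDI1 and NDE1, the Krebs cycle enzymes MDH1 and ACO1, and 2 others, the cytochrome b5 reductase gene MCR1 and the acyl carrier protein gene ACP1. They are short: their listed transcripts have a median length of 784 bp (350 to 2651), against 1330 bp for the other transcripts, and 22 of 34 are under 1000 bp. The +1 nucleosome, the first in the transcript, was centered a median of 41 bp after the listed start, against 45 bp in the other transcripts. In ATP7 and NDE1 it was found 150 bp after the start, at the edge of the search, so the nucleosome numbers of these 2 genes are uncertain. In COX12 the +2 center (214 bp) followed the +1 center (94 bp) at the near edge of its search, so its numbers are uncertain too. Of the 34 genes, 31 were long enough for a +3 and 28 for a +4 nucleosome, and successive centers lay a median of 165 bp apart.

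Averaged over the 34 genes, the array of nucleosomes after the start was much flatter in H3 shutoff cells at 3 h than at 0 h. The height of a peak was taken, in units of the genome mean, from the smoothed read center density at its center down to the lowest point 40 to 140 bp farther on. Every center, here and in the windows below, was located on the 8 libraries pooled. The groups with the most read centers at a place thus weighed most in setting it. A group whose peaks lie off these centers is read lower there, and how far this adds to the falls was not tested. The +1 peak averaged 2.32 and 2.58 in the H3 shutoff 3 h libraries, against 5.26 and 4.99 at 0 h. It averaged 5.63 and 5.46 in the wildtype 3 h libraries, against 6.28 and 5.04 at 0 h. Both H3 shutoff 3 h libraries lay below the other 6 libraries, whereas the wildtype groups overlapped.

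The change in peak height was −2.68 ± 0.37 at +1 (SD, n = 2), −2.42 ± 0.31 at +2, −1.41 ± 0.21 at +3 and −1.52 ± 0.02 at +4 in H3 shutoff cells. In the other transcripts the same heights changed by −2.02 ± 0.46, −1.82 ± 0.20, −1.40 ± 0.14 and −0.89 ± 0.08. The wildtype changes over the 34 genes were −0.12 ± 0.76, −0.72 ± 0.34, −0.28 ± 0.08 and −0.21 ± 0.07. With 2 replicates a strain, an exact permutation test between the strains' changes cannot go below p = 0.333, so these heights are descriptions. The genes started from taller +1 and +2 peaks than the other transcripts, and their +4 peaks were lower at 3 h, at 0.646 and 0.775 in H3 shutoff 3 h against 1.07 and 1.21 in the other transcripts. Among transcripts under 1000 bp the +4 change was −1.18 ± 0.16 over 16 of the genes and −0.73 ± 0.10 over 319 others.

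**Figure D1:**
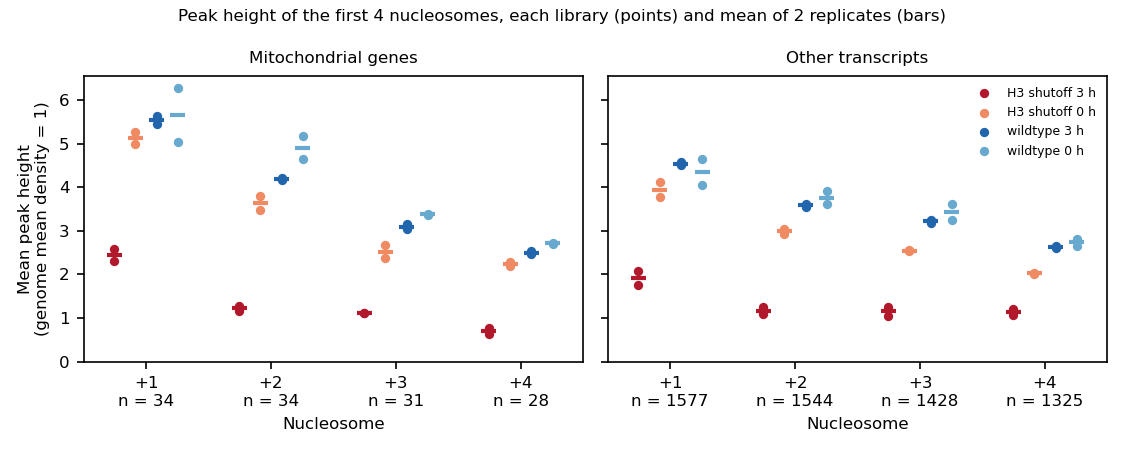
Mean height of the +1 to +4 nucleosome peaks (genome mean density = 1) in the 34 mitochondrial genes and in the other transcripts, with a point per library, a bar at the mean of 2 replicates and the number of transcripts under each nucleosome. The H3 shutoff 3 h points lie below all other points at every position, for example at 2.32 and 2.58 for +1 of the 34 genes, against 5.26 and 4.99 at 0 h.

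Gene by gene, the +1 peak was lower at 3 h than at 0 h in both H3 shutoff replicates in 30 of 34 genes, the +2 peak in 32 of 34, the +3 peak in 25 of 31 and the +4 peak in 26 of 28. Such peaks made up 81.0%, 83.9%, 77.9% and 69.9% of those in the other transcripts. Lower peaks were thus the rule in both sets, and no test compared the sets. Only COX12, a cytochrome c oxidase subunit gene, had a +1 peak that was higher in both replicates, against 8.43% of the other transcripts. The position of that peak was set on the pooled libraries, in which H3 shutoff 3 h weighed most there. In the wildtype, 10 of 34 +1 peaks were lower and 11 higher in both replicates, against 22.9% and 43.5% elsewhere. The spread of read centers around a called +1 nucleosome, its fuzziness, had a median SD of 30.9 and 32.0 bp in H3 shutoff 3 h, against 21.8 and 22.5 bp at 0 h. In wildtype cells it was 19.5 and 19.4 bp at 3 h, against 18.0 and 18.4 bp at 0 h. The mean read center around +1 lay farther into the gene at 3 h, by a median of 6.40 and 11.6 bp in the H3 shutoff replicates, against 7.28 and 9.0 bp in the other transcripts. Fuzziness in the other transcripts was 34.2 and 33.5 bp in H3 shutoff 3 h, against 25.1 and 24.6 bp at 0 h, a similar gap.

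**Figure D2:**
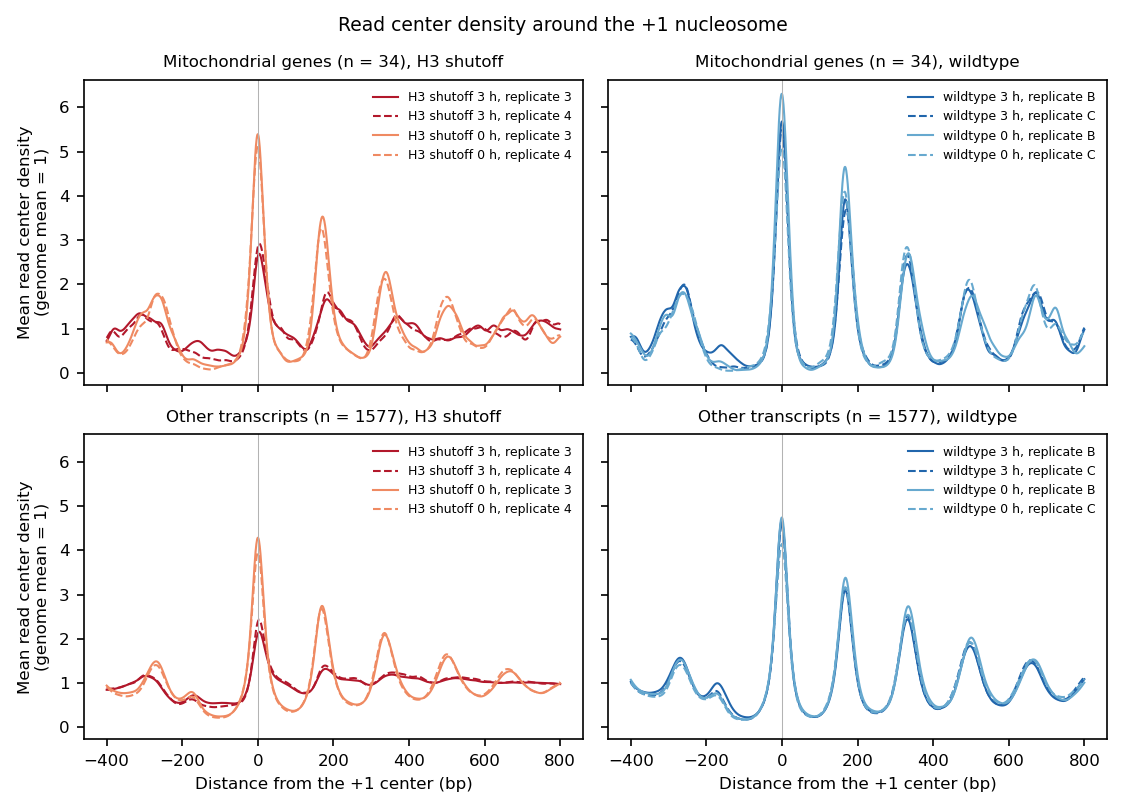
Mean read center density (genome mean = 1, smoothed with an SD of 10 bp) from 400 bp before to 800 bp after the +1 center, for the 34 mitochondrial genes and 1577 other transcripts, with a line per library. In H3 shutoff 3 h the peaks after +1 are low and broad, and the trough before +1 is shallower, with a lowest value of 0.383 and 0.261, against 0.141 and 0.075 at 0 h.

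Read centers within 50 bp of each nucleosome center were counted, and edgeR's quasi-likelihood test was run on all 5922 such windows outside chromosome 10 with Benjamini-Hochberg adjustment. In H3 shutoff cells 69 of the 125 testable windows of the mitochondrial genes fell and 1 rose, beside a background of 41.1% of all windows that fell and 4.14% that rose. The median log2 change was −0.73, against −0.55 in the other transcripts. Both H3 shutoff 3 h libraries lay below both at 0 h in 64.4% of all windows and above them in 9.22%. A lack of overlap at a window named below is therefore common by itself. By position, 21 of 33 +1 windows, 22 of 34 +2 windows, 13 of 30 +3 windows and 13 of 28 +4 windows fell, while 804 of 1565, 700 of 1513, 521 of 1410 and 337 of 1309 did so elsewhere. The median at +4 was −0.76, against −0.37 elsewhere, and at +1 it was −0.67 in both sets. These medians are not matched for transcript length. In several of these short genes the +4 window is centered close to the listed end, for example 0 bp from it in ATP7 and 3 bp in MRP49. These directions depend on the scaling: TMM normalization, which moves the median of all windows to 0.01, left 11 of the gene windows lower and 6 higher with a median of −0.18, and DESeq2 called 0 lower and 3 higher. Leaving out H3 shutoff replicate 3 left 33 calls and leaving out replicate 4 left 23, of 70.

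Of the 34 genes, 28 (82.4%) had at least 1 window that fell, against 76.8% of 1575 other transcripts, and among those with 4 testable windows the shares were 85.2% and 82.2%. All 4 windows fell in 4 of the 27 genes with 4 testable windows (14.8%), against 73 of 1278 such others (5.71%). The counts by role below stand beside the 41.1% of all windows that fell, come from few genes each and were not compared by a test. In the small ribosomal subunit and RSM22, 11 of 15 windows fell, and all 4 did in MRPS8. The +1 nucleosome of MRPS8 (YMR158W) held 56 and 57 read centers in H3 shutoff 3 h, against 158 and 154 at 0 h, and 143 and 158 in wildtype 3 h, against 173 and 148 at 0 h (H3 shutoff log2 change −1.46 ± 0.25 SE, edgeR adjusted p = 2.05e-05). The H3 shutoff 3 h libraries were far below the other 6. In the large ribosomal subunit 24 of 46 windows fell, over 11 of the 13 genes: none fell in MRP49 or MRPL33.

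The largest fitted fall among these was at YML6 (YML025C), which encodes a large subunit protein. Its +3 window held 9 and 16 read centers in H3 shutoff 3 h, against 50 and 46 at 0 h, and 35 and 58 in wildtype 3 h, against 48 and 46 at 0 h. It fell by 1.94 ± 0.39 on the log2 scale (edgeR adjusted p = 0.000127), with no overlap between the H3 shutoff groups and overlap between the wildtype groups. MEF1, the gene of the mitochondrial elongation factor G (YLR069C, chromosome 12, 271486 to 273932), showed a comparable fall at +2. There 26 and 24 read centers stood in H3 shutoff 3 h, against 93 and 88 at 0 h, and 74 and 59 in wildtype 3 h, against 81 and 101 at 0 h (H3 shutoff −1.85 ± 0.26, edgeR adjusted p = 7.03e-07). The wildtype change at that window was −0.45 ± 0.22 and did not pass (adjusted p = 0.226).

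Among the respiratory enzymes, 9 of 12 windows of succinate dehydrogenase fell, as did 7 of 8 in the Krebs cycle genes, 3 of 10 in cytochrome c oxidase, 4 of 10 in ATP synthase and 3 of 8 in the NADH dehydrogenase genes. All 4 windows fell in SDH3, a membrane anchor subunit, in ACO1, which encodes aconitase, and in MCR1. No window fell in COX7, ATP14, NDE1 or ACP1. The largest fitted fall lay at the +4 window of COX8, a small subunit of cytochrome c oxidase (YLR395C, chromosome 12, 909455 to 910017, minus strand). It held 3 and 4 read centers in H3 shutoff 3 h, against 18 and 21 at 0 h (−2.44 ± 0.74, edgeR adjusted p = 0.00718). In wildtype 3 h it held 29 and 37, against 5 and 19 at 0 h (1.57 ± 0.60, adjusted p = 0.113). The 3 h libraries lay below those at 0 h in H3 shutoff and above them in the wildtype, on few counts, and the window is centered 28 bp from the listed end of the transcript. The H3 shutoff call was lost without replicate 3 (−2.36) or replicate 4 (−2.54), with TMM (−1.89) and with DESeq2 (−1.92), with adjusted p between 0.00334 and 0.32 over the alternatives.

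The single rise was at the +1 nucleosome of COX12, another cytochrome c oxidase subunit gene (YLR038C, chromosome 12, 224631 to 225252, minus strand). The window held 94 and 96 read centers in H3 shutoff 3 h, against 42 and 37 at 0 h, and 34 and 21 in wildtype 3 h, against 12 and 18 at 0 h. In H3 shutoff cells it rose by 1.26 ± 0.28 (edgeR adjusted p = 0.000449), a call lost without replicate 4 (adjusted p = 0.0785, over a range of 1.51e-06 to 0.0785 among the alternatives). The groups did not overlap in either strain, with the 3 h counts higher, as in 9.22% (H3 shutoff) and 22.8% (wildtype) of all windows. The +1 center was located on the 8 libraries pooled, and the H3 shutoff 3 h libraries held the most read centers there. Its place was thus set in part by the group where the count is high, and the test is not independent of that choice. The wildtype change of 0.86 ± 0.38 did not pass (adjusted p = 0.183), and the difference between the strains of 0.41 ± 0.49 did not either (adjusted p = 0.536).

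In the wildtype 8 of 125 windows fell and 2 rose, against 4.31% and 1.84% of all windows. MRPL38 +4, in a large subunit gene, rose with 53 and 42 read centers at 3 h, against 22 and 17 at 0 h (1.28 ± 0.38, edgeR adjusted p = 0.0312). NDE1 +4, in the gene of an external NADH dehydrogenase, fell with 30 and 35 at 3 h, against 60 and 75 at 0 h (−1.05 ± 0.28, adjusted p = 0.017). ATP7 +3, in the gene of an ATP synthase stalk subunit, fell with 73 and 78, against 160 and 136 (−0.97 ± 0.25, adjusted p = 0.0142). In all 3 windows the times did not overlap, which in the wildtype held for 22.8% of all windows upward and 21.4% downward. ACO1 +4 (−0.90 ± 0.22, adjusted p = 0.0106) and ACP1 +1 (−0.90 ± 0.26, adjusted p = 0.0312) also fell. DESeq2 called 0 of these 5 windows, with adjusted p between 0.248 and 0.763. All 5 calls depended on wildtype replicate B. In replicate C alone the log2 ratios were 1.28 at MRPL38 +4, −1.09 at NDE1 +4, −0.80 at ATP7 +3, −0.45 at ACO1 +4 and −0.71 at ACP1 +1.

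**Figure D3:**
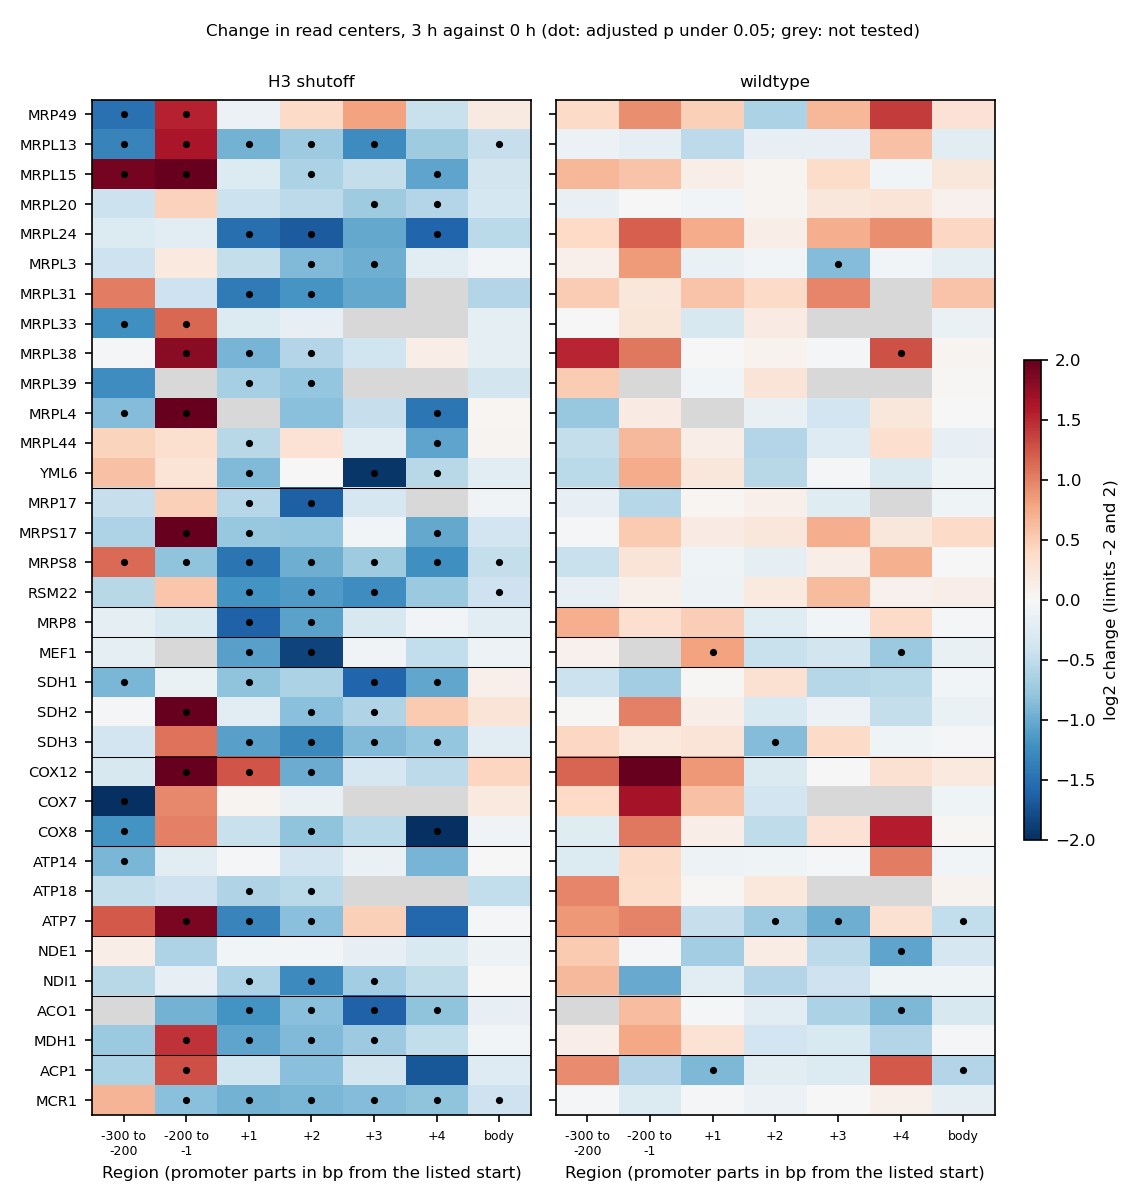
Log2 change of read centers, 3 h against 0 h, for each of the 34 genes (rows, grouped by role) in 2 parts of the promoter, the +1 to +4 windows and the gene body, in H3 shutoff (left) and wildtype (right); dots mark an adjusted p under 0.05 and grey marks a region not tested. In H3 shutoff blue fills and dots dominate the nucleosome columns (69 of 125 windows fell), and the wildtype panel holds 8 falls and 2 rises there.

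The change in H3 shutoff cells was more negative than that in the wildtype at 41 of 125 windows and more positive at 2, against 29.2% and 4.41% of all windows. COX8 +4 had the largest difference, −4.01 ± 0.96 (edgeR adjusted p = 0.00146). ACP1 +4 followed at −2.92 ± 1.02 (adjusted p = 0.0241), with 5 and 6 read centers in H3 shutoff 3 h, against 19 and 17 at 0 h, and 31 and 12 in wildtype 3 h, against 7 and 10 at 0 h. It too is centered close to the transcript's listed end, 23 bp from it. At MRPL24 +4 the difference was −2.51 ± 0.86 (adjusted p = 0.0214), with 11 and 4 in H3 shutoff 3 h, against 21 and 23 at 0 h, and 27 and 31 in wildtype 3 h, against 9 and 23 at 0 h. The ACP1 call was lost without either H3 shutoff replicate (−2.71 and −3.12), and the MRPL24 call without H3 shutoff replicate 4 (−1.86) or wildtype replicate B (−1.99).

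The positive differences were at ATP7 and SDH2. ATP7 +3 held 147 and 188 read centers in H3 shutoff 3 h, against 135 and 105 at 0 h, while the wildtype count fell as given above (difference 1.45 ± 0.34, edgeR adjusted p = 0.00137). SDH2 encodes the iron-sulfur subunit of succinate dehydrogenase, and its +4 window held 132 and 204 in H3 shutoff 3 h, against 103 and 128 at 0 h, and 95 and 84 in wildtype 3 h, against 143 and 107 at 0 h (difference 1.00 ± 0.33, adjusted p = 0.0176). At both windows the H3 shutoff 3 h libraries were above those at 0 h and the wildtype 3 h libraries below theirs. These centers too were located on the pooled libraries, in which the H3 shutoff 3 h pair weighed most there. The tests at these windows are thus not independent of that choice. Both calls were lost without H3 shutoff replicate 4 (differences of 1.09 and 0.83), and that at SDH2 also without wildtype replicate B (0.87). Under TMM normalization 5 differences were negative and 7 positive, and DESeq2 called 0 negative and 2 positive.

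Upstream of the starts, the 300 bp counted as promoter gave a mixed picture. In H3 shutoff cells 3 of 34 promoters rose and 2 fell, beside a background of 7.47% of 1594 promoters that rose and 10.7% that fell. The median change was −0.14, against −0.07 in the other transcripts, a gap of −0.068 that was −0.145 without H3 shutoff replicate 3 and 0.076 without replicate 4. In the wildtype 2 of 34 rose, against 3.32% of all promoters, and 0 fell (1 at an unadjusted p under 0.05, and 0 by DESeq2), against 1.13%. The wildtype median was 0.22, against 0.25 elsewhere, and TMM normalization brought the median of all promoters to 0.02 in the wildtype, with 1 gene higher and 1 lower, and left 3 higher and 1 lower in H3 shutoff cells. The upstream windows of 21 genes overlap another listed transcript, in 10 cases one on the opposite strand, so that part of these counts belongs to neighboring genes. Over all promoters, both H3 shutoff 3 h libraries lay below both at 0 h in 33.7% and above them in 25.2%. In the wildtype these shares were 10.2% and 37.6%, so groups without overlap, as given for genes below, were common.

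Among the translation genes, MRPL15 and MRPS17 rose in H3 shutoff cells. The promoter of MRPL15 (YLR312W-A, chromosome 12, 759449 to 760352, plus strand), which encodes a large subunit protein, held 94 and 81 read centers in H3 shutoff 3 h, against 40 and 8 at 0 h, and 100 and 23 in wildtype 3 h, against 63 and 15 at 0 h. It rose by 2.03 ± 0.40 (edgeR adjusted p = 0.000136), and the wildtype change of 0.65 ± 0.40 did not pass (adjusted p = 0.298). The H3 shutoff groups did not overlap, but the wildtype counts differed more between replicates B and C than between times. MRPS17, a small subunit gene (YMR188C, chromosome 13, 636194 to 637063, minus strand), held 88 and 101 in H3 shutoff 3 h, against 71 and 23 at 0 h, and 80 and 55 in wildtype 3 h, against 73 and 45 at 0 h. It rose by 1.12 ± 0.33 in H3 shutoff cells (adjusted p = 0.0115), and its promoter overlaps GCV2 on the opposite strand. The 17 other translation genes did not pass in either strain, with H3 shutoff changes between −0.40 at MRPL39 and 0.94 at MRPL38.

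Succinate dehydrogenase oxidizes succinate and passes the electrons to ubiquinone. SDH1, its flavoprotein subunit gene (YKL148C, chromosome 11, 169023 to 171303, minus strand), held 111 and 112 promoter read centers in H3 shutoff 3 h, against 124 and 197 at 0 h, and 128 and 140 in wildtype 3 h, against 200 and 187 at 0 h. Its promoter fell in H3 shutoff cells (−0.50 ± 0.18, edgeR adjusted p = 0.0448), and the wildtype change was of the same size without passing (−0.53 ± 0.18, adjusted p = 0.0629). The 3 h counts lay below the 0 h counts in both strains. SDH2 held 192 and 210 in H3 shutoff 3 h, against 193 and 157 at 0 h, and 275 and 187 in wildtype 3 h, against 283 and 165 at 0 h. SDH3 held 86 and 67 in H3 shutoff 3 h, against 75 and 50 at 0 h, and 74 and 70 in wildtype 3 h, against 50 and 62 at 0 h. Neither SDH2 nor SDH3 passed in either strain.

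Cytochrome c oxidase is the terminal enzyme of the respiratory chain, and the 3 genes are for small subunits encoded in the nucleus. COX7 (YMR256C, chromosome 13, 778803 to 779152, minus strand) held 50 and 18 in H3 shutoff 3 h, against 70 and 69 at 0 h, and 97 and 62 in wildtype 3 h, against 44 and 62 at 0 h. It fell in H3 shutoff cells by 1.12 ± 0.37 on the log2 scale (edgeR adjusted p = 0.023), and the wildtype change was 0.57 ± 0.34 (adjusted p = 0.289). The H3 shutoff 3 h libraries were the lower pair without overlap, with replicate 4 the lowest of all 8. Its upstream window overlaps PET111 on the same strand. COX12 held 114 and 99 in H3 shutoff 3 h, against 96 and 65 at 0 h, and 139 and 99 in wildtype 3 h, against 37 and 60 at 0 h. Here the wildtype promoter rose (1.29 ± 0.26, adjusted p = 0.0013) and the H3 shutoff change did not pass (0.42 ± 0.25, adjusted p = 0.243). The wildtype call was lost without wildtype replicate B (adjusted p between 6.84e-06 and 0.552 over the alternatives). COX8 held 60 and 43 in H3 shutoff 3 h, against 57 and 57 at 0 h, and 103 and 61 in wildtype 3 h, against 76 and 74 at 0 h, with overlapping groups and no call.

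ATP synthase makes ATP from the proton gradient. ATP7 (YKL016C, chromosome 11, 407032 to 407694, minus strand) held 149 and 138 promoter read centers in H3 shutoff 3 h, against 62 and 32 at 0 h, and 141 and 50 in wildtype 3 h, against 91 and 20 at 0 h. Its promoter rose in H3 shutoff cells (1.64 ± 0.26, edgeR adjusted p = 2.68e-06) and, at the threshold, in the wildtype (0.88 ± 0.28, adjusted p = 0.0498). No alternative kept the wildtype call, with adjusted p between 0.0554 and 0.787. ATP18 held 93 and 50 in H3 shutoff 3 h, against 109 and 83 at 0 h, and 85 and 139 in wildtype 3 h, against 49 and 96 at 0 h. ATP14 held 74 and 45 in H3 shutoff 3 h, against 96 and 99 at 0 h, and 82 and 54 in wildtype 3 h, against 65 and 87 at 0 h. Neither ATP18 nor ATP14 passed within a strain, although the H3 shutoff 3 h counts of ATP14 were below those at 0 h without overlap (−0.74 ± 0.29, adjusted p = 0.0654).

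NDI1 and NDE1 encode single-subunit NADH dehydrogenases that take the place of complex I in this yeast. NDI1 held 141 and 111 in H3 shutoff 3 h, against 159 and 166 at 0 h, and 232 and 192 in wildtype 3 h, against 192 and 175 at 0 h. NDE1 held 61 and 37 in H3 shutoff 3 h, against 63 and 52 at 0 h, and 84 and 52 in wildtype 3 h, against 64 and 47 at 0 h. No change at either gene passed. MDH1, the mitochondrial malate dehydrogenase gene, held 80 and 54 in H3 shutoff 3 h, against 36 and 39 at 0 h, and 49 and 43 in wildtype 3 h, against 35 and 31 at 0 h. ACO1 held 52 and 25 in H3 shutoff 3 h, against 54 and 48 at 0 h, and 88 and 49 in wildtype 3 h, against 46 and 42 at 0 h. The MDH1 groups did not overlap in either strain, yet neither gene passed (H3 shutoff 0.81 ± 0.40 with adjusted p = 0.155 at MDH1). In the promoters of MCR1 and ACP1 no change passed.

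**Figure D4:**
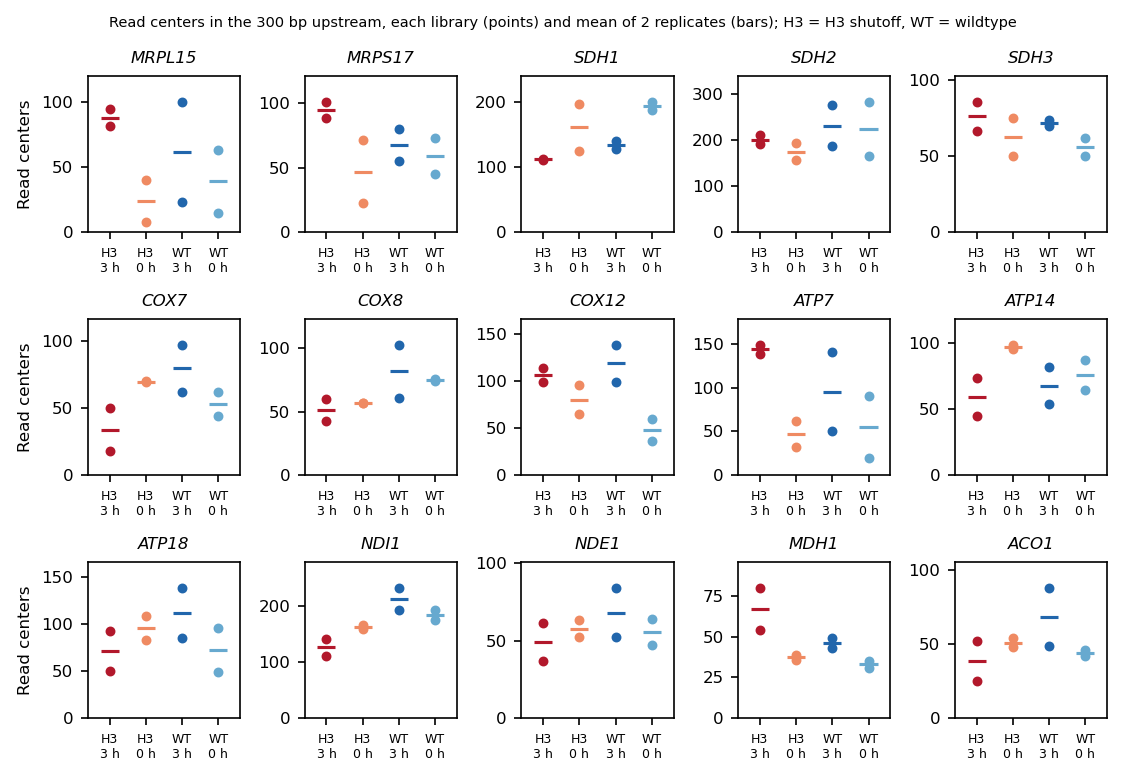
Read centers in the 300 bp upstream of MRPL15, MRPS17 and the 13 respiratory chain and Krebs cycle genes, with a point per library and a bar at the mean of 2 replicates. The H3 shutoff 3 h points stand above those at 0 h at MRPL15 (94 and 81, against 40 and 8) and ATP7 (149 and 138, against 62 and 32), and below them at COX7 (50 and 18, against 70 and 69).

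The change in promoter counts differed between the strains at 2 of 34 genes, both with a more negative change in H3 shutoff cells, against 11.7% of all promoters, and at 0 genes in the other direction (2 at an unadjusted p under 0.05, and 0 by DESeq2), against 3.58%. These were COX7 (−1.69 ± 0.50, edgeR adjusted p = 0.0159) and ATP18 (−1.11 ± 0.35, adjusted p = 0.0226). The median difference was −0.16, against −0.30 elsewhere. Under TMM normalization it turned to 0.09, with 1 difference negative and 1 positive. Without wildtype replicate B neither call remained. The promoter calls were not stable. Without H3 shutoff replicate 4, 0 of 34 genes passed in that strain (2 at an unadjusted p under 0.05), with values of 1.26 at ATP7, 1.23 at MRPL15, 0.31 at MRPS17, −0.48 at COX7 and −0.16 at SDH1. With the wildtype 3 h libraries exchanged 0 passed in either strain (8 in H3 shutoff and 3 in the wildtype at an unadjusted p under 0.05), and without the replicate as a block 1 passed in H3 shutoff and 0 in the wildtype.

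The 300 bp window joins 2 stretches that differed. In the 200 bp next to the start 12 of 32 promoters rose in H3 shutoff cells and 2 fell, against 18.9% and 12.1% of 1460 promoters, with a median change of 0.52, against 0.03 in the other transcripts. Those that rose were 6 large subunit genes (MRPL38, MRP49, MRPL13, MRPL15, MRPL4, MRPL33), MRPS17, SDH2, COX12, ATP7, MDH1 and ACP1. MCR1 and MRPS8 fell. In the wildtype 0 of 32 passed in either direction (5 at an unadjusted p under 0.05), against 1.03% that rose and 0.616% that fell. The difference between strains was positive at ACP1 (1.88 ± 0.53, edgeR adjusted p = 0.00914), MRPL13 (1.83 ± 0.52, adjusted p = 0.0102) and MRPS17 (1.65 ± 0.58, adjusted p = 0.0393) and negative at ACO1 and MRPS8, against 5.14% and 12.2% of all promoters.

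In the stretch from 300 bp to just over 200 bp upstream, defined after these data were seen, 8 of 33 promoters fell in H3 shutoff cells and 2 rose, against 19.7% and 12.1% of 1318 promoters. The median change was −0.43, against −0.21 elsewhere. In the wildtype 0 of 33 passed (6 at an unadjusted p under 0.05), against 0.0759% that rose and 0.303% that fell, and the difference was negative at 7 genes and positive at 1, against 13.7% and 3.49%. COX7 fell the most, with 19 and 7 read centers in H3 shutoff 3 h, against 59 and 60 at 0 h, and 63 and 58 in wildtype 3 h, against 33 and 61 at 0 h (−2.22 ± 0.42, edgeR adjusted p = 0.00649). COX8 also fell, with 20 and 15 in H3 shutoff 3 h, against 36 and 44 at 0 h (−1.19 ± 0.33, adjusted p = 0.0248). SDH1, ATP14, MRP49, MRPL13, MRPL4 and MRPL33 also fell, and MRPL15 and MRPS8 rose. At COX7 the 200 bp next to the start had a change of 0.96, opposite in sign to its 300 bp value, and at MRPS17 the far stretch had −0.62, opposite to its rise over 300 bp.

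The window from 150 to 51 bp upstream was also defined after these data were seen. It was set to cover the nucleosome-depleted region (NDR), the gap before +1 where few nucleosomes sit. The window is placed from the listed start, so it may miss the NDR where +1 was found far into the transcript. This may be so in ATP7 and NDE1 (+1 at 150 bp), ACO1 (115 bp) and COX12 (94 bp). Summed over the 34 genes it held 893 and 536 read centers in H3 shutoff 3 h, against 297 and 186 at 0 h, which is 3.01 and 2.88 times as many. In the wildtype it held 520 and 155 at 3 h, against 199 and 127 at 0 h, or 2.61 and 1.22 times as many. Both H3 shutoff 3 h libraries exceeded the other 6, and the wildtype ratio differed between replicates B and C. The sums over the other transcripts were 1.23 and 1.19 times as high at 3 h in H3 shutoff cells and 1.30 and 1.1 times in the wildtype. The median count per gene was 24 and 12 in H3 shutoff 3 h, against 8.5 and 4 at 0 h, and in the other transcripts 20 and 14, against 9 and 6.

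Counts in this window were higher in both H3 shutoff 3 h libraries than in both 0 h libraries at 24 of 34 genes (70.6%) and lower at 1, against a background of 51% higher and 17.7% lower over 1614 transcripts. In the wildtype they were higher without overlap at 7 genes (20.6%) and lower at 0, against 28.6% and 5.76%. ATP7 had 69 and 53 read centers in H3 shutoff 3 h, against 12 and 4 at 0 h, and 20 and 14 in wildtype 3 h, against 5 and 3 at 0 h. COX12 had 49 and 42 in H3 shutoff 3 h, against 6 and 4 at 0 h, and 31 and 4 in wildtype 3 h, against 5 and 1 at 0 h. In both genes the H3 shutoff 3 h libraries lay above the other 6. MRPL13 had 56 and 31 in H3 shutoff 3 h, against 8 and 3 at 0 h, and 8 and 2 in wildtype 3 h, against 5 and 0 at 0 h. ACO1 was the exception, with 3 and 0 in H3 shutoff 3 h, against 14 and 30 at 0 h, and 11 and 17 in wildtype 3 h, against 15 and 19 at 0 h. Its +1 was centered 115 bp after the listed start, against a median of 41 bp in the 34 genes. Its window thus lies farther before +1 than in most of them and cannot be read as its NDR. The same holds for ATP7 (+1 at 150 bp) and COX12 (94 bp), so their higher counts cannot be read as NDR counts either. Counts of this size carry a counting error of their own beside the spread of replicates.

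**Figure D5:**
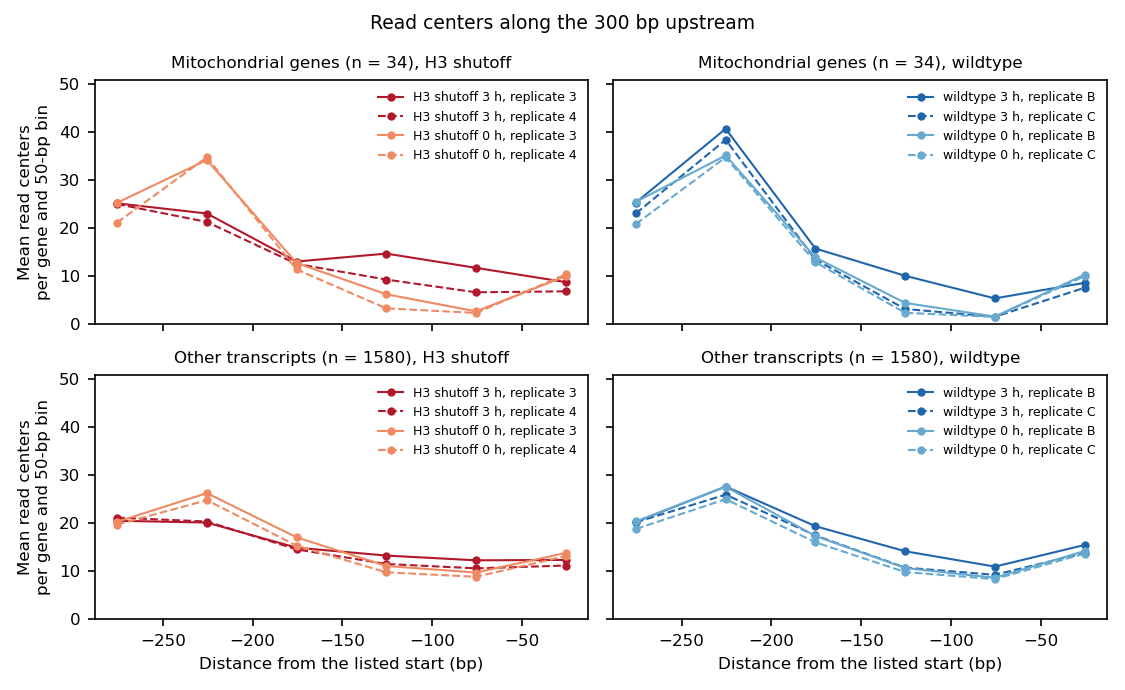
Mean read centers per gene in 50 bp bins of the 300 bp upstream, with a line per library, for the 34 mitochondrial genes and 1580 other transcripts in H3 shutoff (left) and wildtype (right). Between 100 and 51 bp upstream the 34 genes averaged 11.7 and 6.56 in H3 shutoff 3 h, against 2.59 and 2.26 at 0 h, and in the bin from 250 to just over 200 bp upstream 23.0 and 21.2, against 34.1 and 34.7.

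Counts over whole transcripts changed less. In H3 shutoff cells 4 of 34 gene bodies fell and 0 rose (2 at an unadjusted p under 0.05, and 0 by DESeq2), against 7.27% and 5.78% of 1609 gene bodies. The median was −0.17, against −0.04 elsewhere. MRPS8 held 251 and 270 in H3 shutoff 3 h, against 377 and 345 at 0 h, and 344 and 377 in wildtype 3 h, against 339 and 376 at 0 h (H3 shutoff −0.47 ± 0.12, edgeR adjusted p = 0.0413). MRPL13 held 385 and 345 in H3 shutoff 3 h, against 480 and 522 at 0 h, and 457 and 496 in wildtype 3 h, against 584 and 525 at 0 h (−0.46 ± 0.12, adjusted p = 0.0409). RSM22, a partner of the small subunit, held 613 and 513 in H3 shutoff 3 h, against 741 and 755 at 0 h, and 762 and 837 in wildtype 3 h, against 659 and 796 at 0 h (−0.41 ± 0.10, adjusted p = 0.0369). In all 3 genes the H3 shutoff 3 h libraries were below those at 0 h without overlap, as in 39% of all gene bodies. Another 26.6% of all gene bodies were higher without overlap, and in the wildtype 28% were lower and 26.1% higher. On fragments of 140 to 160 bp only RSM22 of these 3 genes kept its call, and MRPS8 lost its call with TMM as well. MCR1 was the fourth gene body that fell. DESeq2 called 0 of them, and 0 passed without H3 shutoff replicate 4 (5 at an unadjusted p under 0.05).

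In the wildtype 2 gene bodies fell, against 4.23% of all transcripts, and 0 rose (3 at an unadjusted p under 0.05, and 0 by DESeq2), against 1.49%. ACP1 held 201 and 212 at 3 h, against 321 and 299 at 0 h (−0.59 ± 0.13, edgeR adjusted p = 0.0465), and ATP7 held 281 and 314, against 421 and 417 (−0.50 ± 0.11, adjusted p = 0.0465). Both were lost without either wildtype replicate (highest adjusted p over the alternatives 0.467 and 0.484). The change differed between strains at 4 genes, each more negative in H3 shutoff cells, against 9.07% of all transcripts, and at 0 genes in the other direction (2 at an unadjusted p under 0.05, and 0 by DESeq2), against 9.51%. MRPL31 held 124 and 87 in H3 shutoff 3 h, against 161 and 152 at 0 h, and 165 and 190 in wildtype 3 h, against 99 and 142 at 0 h (difference −1.15 ± 0.27, adjusted p = 0.0274). MRPL24 held 202 and 151 in H3 shutoff 3 h, against 251 and 260 at 0 h, and 271 and 281 in wildtype 3 h, against 180 and 235 at 0 h (−0.96 ± 0.24, adjusted p = 0.0299). MRPS17 (−0.76 ± 0.19, adjusted p = 0.0317) and RSM22 (−0.55 ± 0.14, adjusted p = 0.0319) completed the set. In MRPL31 and MRPL24 the 3 h libraries lay below those at 0 h in H3 shutoff and above them in the wildtype, without overlap in either. Without wildtype replicate B 0 of 34 differences passed (6 at an unadjusted p under 0.05), and without H3 shutoff replicate 4 only 1 did.

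A further 16 genes were taken, most of which regulate, assemble or express the same machinery, while MAE1 encodes the mitochondrial malic enzyme. Of their promoters 4 fell in H3 shutoff cells (SLS1, HAP1, NAM2, ATP10) and 2 rose (MAE1, PUF3), beside 10.7% and 7.47% of all promoters. Of their nucleosome windows 24 of 59 fell and 2 rose, shares near the 41.1% and 4.14% of all windows. NAM2 encodes the mitochondrial leucyl-tRNA synthetase, and its promoter held 67 and 66 in H3 shutoff 3 h, against 152 and 168 at 0 h, and 152 and 216 in wildtype 3 h, against 145 and 165 at 0 h (H3 shutoff −1.26 ± 0.19, edgeR adjusted p = 7.67e-07, difference −1.50 ± 0.25). PUF3, whose product binds mRNAs of mitochondrial proteins, held 80 and 44 in H3 shutoff 3 h, against 29 and 16 at 0 h, and 65 and 26 in wildtype 3 h, against 23 and 13 at 0 h (H3 shutoff 1.46 ± 0.48, adjusted p = 0.023). The NAM2 groups were apart in H3 shutoff cells only, and those of PUF3 in both strains. The promoter of HAP4, the glucose-regulated subunit of the activator of respiratory genes, held 38 and 17 in H3 shutoff 3 h, against 45 and 53 at 0 h, and 55 and 39 in wildtype 3 h, against 22 and 48 at 0 h, and did not pass (H3 shutoff −0.89 ± 0.47, adjusted p = 0.194).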

How the data were processed

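Paired-end MNase-seq libraries of 2 strains at 3 h and 0 h were used. Per the submitters' processing notes and the study's methods, the authors aligned reads with Bowtie 0.12.6 to sacCer1, retained only pairs spanning 100 to 200 bases, discarded the rDNA locus and drew an equal number of pairs per library. The authors deposited the fragments' coordinates in bp and nucleosome calls that hold counts of read centers, the fraction of a nucleosome's read centers on its center base (not used), and the SD used here as fuzziness. Read centers were recounted here from the deposited fragments.

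Of the study's list of transcripts the coordinates were used and the expression columns not. The 385 transcripts on chromosome 10 were left out, because their listed coordinates were shifted against the fragments. The +1 to +4 nucleosomes were located as the highest smoothed density (SD 10 bp) in the 8 libraries pooled: −50 to 150 bp from the start for +1, then 120 to 210 bp on. Windows hold read centers within 50 bp of a center. Regions with at least 80 read centers over the 8 libraries were fitted with edgeR 4.0.16 (R 4.3.3, equal library sizes, quasi-likelihood test) with strain, time and the replicate as a block, for the change in each strain and the difference between changes. P-values were adjusted by Benjamini-Hochberg over all such transcripts or windows outside chromosome 10, with a threshold of 0.05. The SE beside a fitted log2 change was back-calculated, as that change's absolute value divided by the square root of the test's F statistic. The block follows the study, which compared times within a replicate. Same-numbered libraries deviated together with correlations between 0.07 and 0.253. The fits were tested on simulated data. DESeq2 1.42.0, TMM, no filter, no block, other promoter and fragment lengths, other smoothing, chromosome 10 kept, exchanged wildtype libraries and each replicate left out were tried.

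The 34 genes, the further pathway genes and the tests were chosen with earlier results of these data known. Genes named with all values are those past the threshold with the same sign in both replicates (up to 3 in each direction, up to 5 in the wildtype), and, for promoters, the respiratory chain and Krebs cycle genes. MRPS8 +1, NAM2, PUF3, HAP4, the genes named in parts of the promoter and all values of the NDR window were added after their values were seen. Symbols for all 34 matched RefSeq R64, which was used for names only. Promoter motifs were not analysed here. Counts carry counting error beside the spread of replicates.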

Additional observations from a re-analysis of the deposited data

Results flagged for a closer look

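The results below are those whose change from 0 h to 3 h differed between H3 shutoff and wildtype cells by edgeR's test of the difference itself, with Benjamini-Hochberg adjustment. All values are H3 shutoff change minus wildtype change in log2 units. In promoters these were COX7 (−1.69) and ATP18 (−1.11). Among nucleosome windows 43 passed, with the named extremes at COX8 +4 (−4.01), ACP1 +4 (−2.92), MRPL24 +4 (−2.51), ATP7 +3 (1.45) and SDH2 +4 (1.00). In gene bodies they were MRPL31 (−1.15), MRPL24 (−0.96), MRPS17 (−0.76) and RSM22 (−0.55). COX8 +4 passed under the 9 alternatives that gave it an adjusted p (0.00101 to 0.0262), DESeq2 and fragments of 140 to 160 bp giving none, while the others named lost their calls under at least 1 alternative.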

How the results depend on the processing

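The counts of genes or windows called depend on single libraries and on scaling, and the causes were not tested. They are given in the order H3 shutoff, wildtype and difference. With DESeq2 they were 2, 0 and 0 promoters, 3, 0 and 2 windows and 0, 0 and 0 gene bodies (6 and 7 of 34 gene bodies had an adjusted p in the wildtype and the difference). With TMM 17 windows were called in H3 shutoff and 12 in the difference. With the wildtype 3 h libraries exchanged they were 0, 0 and 0 promoters, 0, 0 and 0 gene bodies and 6 wildtype windows. In the 200 bp promoter they were 14, 0 and 5, and from 300 to over 200 bp upstream 10, 0 and 8. Without the filter, or with chromosome 10 kept, 1 wildtype promoter was called. Fragments of 140 to 160 bp gave 26 windows in the difference.

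The fit without the replicate block called 1, 0 and 0 promoters and 3 wildtype windows. The block moved no other count by over 1.5 times. With TMM 7 of the named results lost their call. With DESeq2 18 lost it and 5 kept it, the rest having no adjusted p. With 140 to 160 bp fragments 8 lost it and 19 kept it, the rest not being tested. Those lost were the promoters of SDH1, ATP7 (wildtype) and ATP18 (difference) and the windows ACP1 +1 (wildtype) and SDH2 +4 (difference). The gene bodies of MRPS8, MRPL13 and ACP1 (wildtype) were lost too. Of the 31 named results, 12 lost their call without the block, 20 with the wildtype 3 h libraries exchanged, 20 without H3 shutoff replicate 4 and 16 without wildtype replicate B.

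Leaving out 1 replicate at a time gave 0 to 8, 0 to 3 and 0 to 6 promoters, 23 to 73, 0 to 10 and 18 to 35 windows, and 0 to 5, 0 to 4 and 0 to 5 gene bodies. Where 0 genes were called in an alternative, 2 to 14 had an unadjusted p under 0.05.

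The median of the 34 genes minus that of the other transcripts moved for promoters to 0.487 (200 bp) in H3 shutoff, with −0.145 to 0.076 when leaving out a replicate, and in the wildtype to 0.187 (140 to 160 bp fragments), 0.044 (200 bp) and 0.007 (chromosome 10 kept), with −0.033 to 0.011 when leaving out a replicate. For windows it moved to −0.241 with 140 to 160 bp fragments, and leaving out a replicate gave −0.239 to −0.179 in H3 shutoff and −0.134 to −0.037 in the wildtype. For gene bodies leaving out a replicate gave −0.128 to −0.092 in H3 shutoff.

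With a smoothing SD of 20 bp the peak heights changed by −1.81, −1.53, −0.98 and −1.01 at +1 to +4 in H3 shutoff and by −0.196 at +3 in the wildtype. With 140 to 160 bp fragments they changed by −2.96 at +2 and −1.58 at +4 in H3 shutoff and −0.485 at +4 in the wildtype, and the log2 ratio of the summed NDR counts was 1.88 in H3 shutoff. Named promoters turned in sign at 2 genes: COX7 was 0.96 in the 200 bp promoter and MRPS17 −0.62 from 300 to over 200 bp upstream. The NDR window, the 300 to over 200 bp stretch were chosen after seeing the data. Depth limits windows such as COX8 +4, with fewer than 5 read centers in H3 shutoff 3 h libraries.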
